A study of Mus musculus with 6 samples.

Results

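The collagen chains are the genes whose symbol has the form Col, a number, the letter a and a number, such as Col1a1 or Col4a2. The array named 82 of its 45101 probe sets (groups of short probes that together read a transcript) for one such gene alone, and these covered 42 genes. Of the 82, 52 probe sets of 30 genes were bright enough to be tested for a difference between strains. The other 30 probe sets were dimmer, with signals from 1.9 to 167.4, and for 12 genes no probe set was tested.

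The tissue was the carotid body, a small organ beside the carotid artery that senses a fall in blood oxygen. It was taken from untreated male mice aged 28 days of 2 inbred strains, A/J and DBA/2J, and total RNA was read on Affymetrix Mouse 430 2.0 arrays. Each of the 3 A/J arrays held the RNA of a pool of 19 to 21 mice (38 to 42 carotid bodies), and each of the 3 DBA/2J arrays that of 18 or 19 mice (36 or 38 carotid bodies), so the spread between arrays is a spread between pools. The design set the carotid body of one strain against that of the other across the whole array.

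Collagens are secreted proteins wound as helical trimers. Fibrillar collagens, led by types I, III and V, bundle into the fibres of connective tissue, type IV chains form the network of basement membranes under endothelium, around muscle fibres and around glia, and type VI forms beaded filaments near cells. Fibril-associated chains decorate the fibres, short-chain collagens build lattices around vessels, and a few chains are anchored in cell membranes. In the carotid body the clusters of sensory cells are wrapped by glia-like cells and lie in a connective tissue rich in capillaries, so most of these classes have a place there.

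Signals below are the deposited linear intensities, and a log2 difference is the DBA/2J mean less the A/J mean of log2(signal + 16), with the standard error (SE) of the limma fit. A probe set was called when its limma p, adjusted by Benjamini-Hochberg over all 27022 tested probe sets, lay under 0.05. Median signals ran from 163.5 to 183.1 over the 6 arrays, and no detection call was used, so for a dim probe set it is unknown whether its signal stood above background. Markers of the sensory type I cell were present on every array, with tyrosine hydroxylase (Th) between 2760.1 and 8415.8, and markers of skeletal muscle moved with the strain, their summed signal lying between 52436 and 127775 in A/J and between 1833 and 3156 in DBA/2J. As a sign of RNA quality, the ratio of the 3' to the 5' control probe set of Gapdh was 1.74, 4.87 and 1.81 in A/J (arrays 1, 2 and 3) against 2.5, 3.28 and 1.73 in DBA/2J.

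The collagens as a family were close to level between the strains, and 2 genes, Col4a6 and Col8a1, were called higher in DBA/2J. Of the 52 tested probe sets, 2 were called higher (3.85%) and 0 lower, while 3.27% of all tested probe sets were called, 1.86% higher and 1.41% lower. The limma p without adjustment was under 0.05 for 6 higher and 4 lower collagen probe sets, and for 15.3% of all tested probe sets. The median log2 difference of the collagen probe sets was -0.05, with 23 positive and 29 negative, and that of all tested probe sets 0.01. The absolute difference was under 0.5 in 80.8% of the collagen probe sets and in 80.0% of all. Counted once per gene by its brightest probe set, 2 of 30 collagen genes were called higher and 0 lower. Of all 13006 genes tested 4.48% were called, 2.57% higher and 1.91% lower. Col4a6 was bright enough for the test in DBA/2J alone, so its place in these counts came with the difference itself. Col8a1 reached the level in both strains, but its called probe set passed narrowly (limma adjusted p = 0.0487). That call was lost without each of the 6 arrays in turn, and the call of Col4a6 was lost without some of them. The 95% interval of the difference lay within 2-fold in either direction for 41 of the 52 probe sets, but within 1.5-fold for only 16 of them, so smaller differences were not resolvable with 3 arrays per strain. The share of collagen probe sets called in either direction was thus near the background of the array, and 2 calls are too few to compare shares by direction. In bulk tissue fewer cells of a type and less RNA per cell cannot be told apart.

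**Figure D1:**
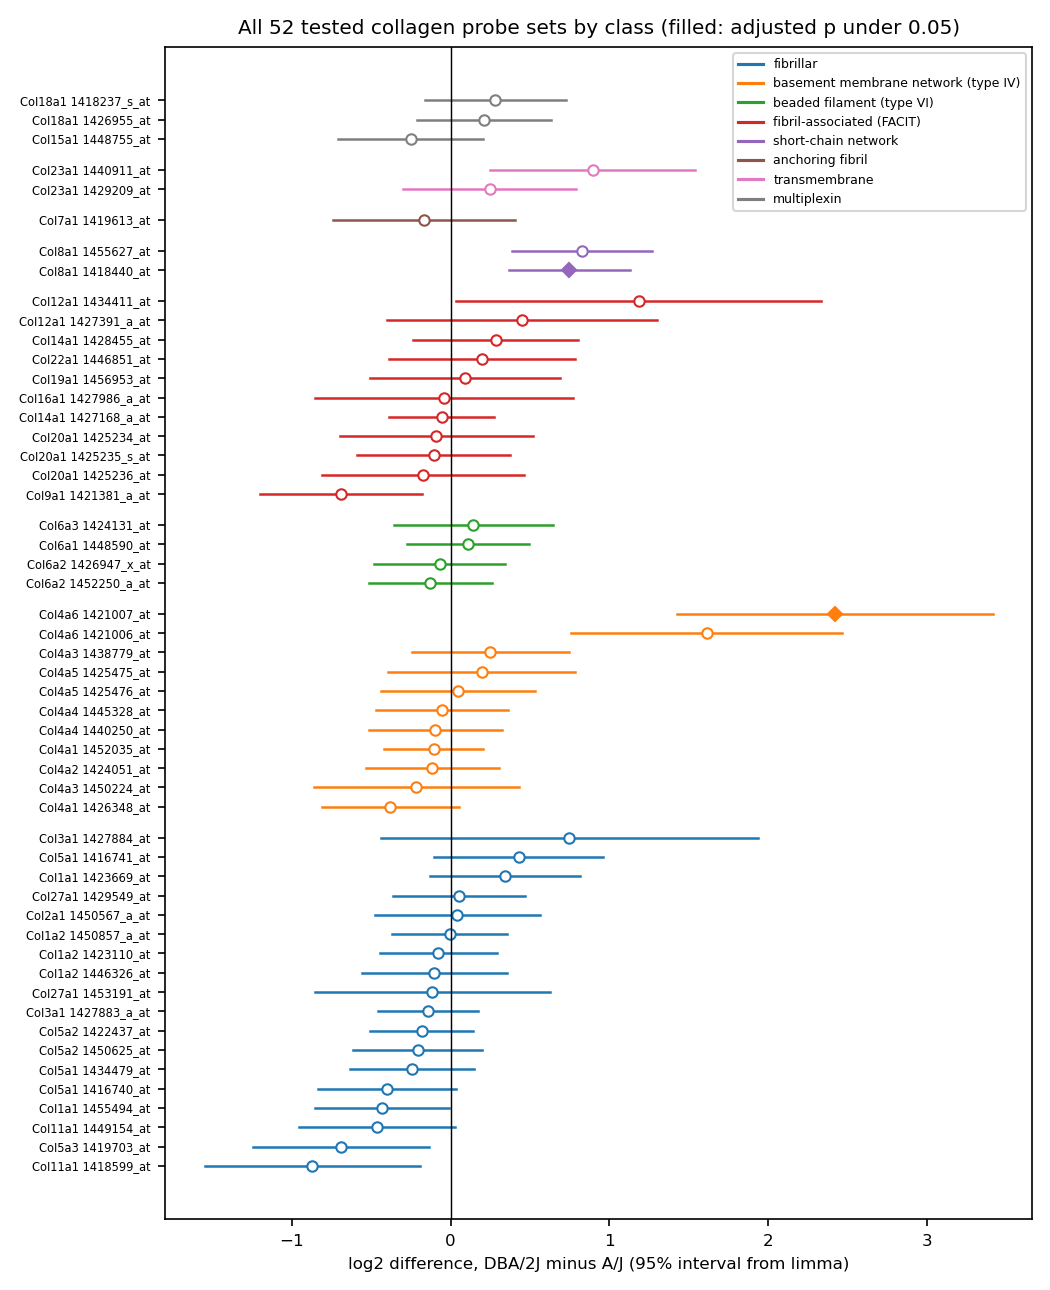
The x axis gives the log2 difference, DBA/2J minus A/J, of each of the 52 tested collagen probe sets, with its 95% interval from limma, and colours mark the collagen class; filled diamonds passed an adjusted p of 0.05. The intervals of most probe sets cross 0, and those of both Col4a6 and both tested Col8a1 probe sets and of 1 probe set each of Col12a1 and Col23a1 lie wholly above it. Those of 1 probe set each of Col1a1, Col5a3, Col9a1 and Col11a1 lie wholly below it.

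Among the type IV chains, which make the basement membrane network, Col4a6 alone had a called probe set. Its alpha-6 chain assembles with the alpha-5 chain encoded by its neighbour Col4a5, and the resulting network is found in the basement membranes of some epithelia and of smooth muscle. The starts of Col4a6 and Col4a5 lie head to head on the X chromosome with no protein-coding gene between them, 1343 bases apart in the RefSeq table used here (GRCm38.p6). Their promoter windows, from 250 bases before to 50 bases after the start, are shown because these neighbours gave unequal differences between the strains, with that of Col8a1 for comparison. Each is read 5′ to 3′ on the gene's own strand, and capitals mark matches on either strand to 2 searched motifs, the GC box GGGCGG and the CCAAT box.
Col4a6, chrX:141474027-141474326, minus strand: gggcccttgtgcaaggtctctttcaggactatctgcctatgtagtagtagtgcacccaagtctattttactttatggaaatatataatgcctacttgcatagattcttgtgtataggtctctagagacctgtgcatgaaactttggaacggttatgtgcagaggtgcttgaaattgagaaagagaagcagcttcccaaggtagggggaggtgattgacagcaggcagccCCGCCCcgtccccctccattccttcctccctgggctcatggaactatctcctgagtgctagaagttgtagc
Col4a5, chrX:141475169-141475468, plus strand: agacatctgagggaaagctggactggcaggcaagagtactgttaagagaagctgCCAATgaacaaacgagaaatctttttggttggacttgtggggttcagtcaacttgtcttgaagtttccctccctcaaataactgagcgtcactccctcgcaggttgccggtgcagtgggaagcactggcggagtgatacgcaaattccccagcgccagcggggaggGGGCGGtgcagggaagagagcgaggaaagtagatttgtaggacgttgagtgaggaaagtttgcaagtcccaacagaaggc
Col8a1, chr16:57754688-57754987, minus strand: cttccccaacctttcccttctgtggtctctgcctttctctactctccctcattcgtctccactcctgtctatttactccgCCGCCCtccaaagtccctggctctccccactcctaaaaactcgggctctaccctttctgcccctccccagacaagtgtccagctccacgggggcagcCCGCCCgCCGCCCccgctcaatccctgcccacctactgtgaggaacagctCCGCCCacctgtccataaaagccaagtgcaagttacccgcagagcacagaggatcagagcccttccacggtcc

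The Col4a6 window held 1 GC box, the Col4a5 window 1 GC box and 1 CCAAT box, and the Col8a1 window 4 GC boxes, and none of the 3 held a TATA box written as TATAAA on either strand. Of all 32851 promoter windows of that length in the table, 35.7% held a GC box, 37.4% a CCAAT box and 13.6% a TATA box. These motifs do not overlap one another in the windows shown. GC content was 48.3% in the Col4a6 window, 52.7% in that of Col4a5 and 60.3% in that of Col8a1. Promoter windows were found for 33 of the 42 collagen genes, 36 windows in all, of which 22 held a GC box, 13 a CCAAT box and 5 a TATA box.

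The probe set 1421007_at of Col4a6 read 93.6, 59.0 and 44.9 on the A/J arrays and 623.2, 187.9 and 575.2 on the DBA/2J arrays. All DBA/2J values lay above all A/J values, DBA/2J array 2 being the lowest of its strain. The mean signal rose from 65.8 ± 25.1 to 462 ± 239 (SD, n = 3 arrays), with a log2 difference of 2.42 (SE 0.44, limma adjusted p = 0.0192). The second probe set, 1421006_at, read 93.5, 135.1 and 39.0 in A/J and 297.0, 213.5 and 348.1 in DBA/2J. It again separated the strains without overlap and again had its lowest DBA/2J value on array 2, but it missed the threshold (log2 difference 1.62, SE 0.38, limma adjusted p = 0.0571). Both probe sets were below the level required for testing in A/J alone and entered the test through their DBA/2J signals, so a difference between strains was built into their being tested. Col20a1 had 1 probe set that entered through A/J alone, and the remaining 49 reached the level in both strains. The call of 1421007_at was kept without A/J array 1 and without DBA/2J array 2 (limma adjusted p = 0.0484 and 0.000981). It was lost without A/J array 2, A/J array 3, DBA/2J array 1 and DBA/2J array 3, where the adjusted p was 0.0654, 0.0856, 0.103 and 0.0791 and the log2 difference 2.38, 2.23, 2.13 and 2.18.

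Its partner Col4a5 was not called. The brighter Col4a5 probe set, 1425476_at, read 2979.6, 3895.9 and 3986.1 in A/J and 4143.4, 2838.8 and 4333.4 in DBA/2J, with overlapping groups and a log2 difference of 0.05 (SE 0.21, 95% interval -0.44 to 0.53). The dimmer one, 1425475_at, had 414 ± 123 and 473 ± 104 and a difference of 0.20. Taken as the log2 value of Col4a6 minus that of Col4a5 on the same array, all 4 pairings of their probe sets were higher in DBA/2J without overlap, by 1.42 to 2.38. An exact permutation test gave p = 0.1 for all 4, the lowest value possible with 3 arrays per strain, so it could not decide. These values are given as a description only, since Col4a6 was admitted through its DBA/2J signal. Its A/J signals, from 39.0 to 135.1, are not known to lie above background.

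The remaining type IV chains overlapped between the strains. Col4a1 and Col4a2, which form the network of nearly all basement membranes, also share a head-to-head start region, with their starts 21 bases apart in the RefSeq table. The bright Col4a1 probe set 1452035_at read 10084.9, 9286.9 and 10131.0 in A/J and 9316.6, 9687.4 and 8461.5 in DBA/2J, a log2 difference of -0.10 (95% interval -0.42 to 0.21). Its second probe set gave -0.38 (95% interval -0.81 to 0.05, limma adjusted p = 0.401). Col4a2 read 2828.5, 2321.1 and 3268.7 in A/J and 2402.4, 2823.9 and 2493.9 in DBA/2J, a difference of -0.11. Neither chain of the common network was called, and the strains overlapped in each of their probe sets. Col4a3 and Col4a4 are the chains that join the alpha-5 chain in the kidney glomerulus. Col4a3 by 1438779_at read 283.3, 260.4 and 360.6 in A/J and 395.8, 390.9 and 297.6 in DBA/2J (0.25), and Col4a4 by 1440250_at read 945.6, 1101.6 and 850.1 in A/J and 867.1, 872.9 and 955.8 in DBA/2J (-0.10). Their other tested probe sets gave -0.22 and -0.05, and another Col4a4 probe set was too dim to test.

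**Figure D2:**
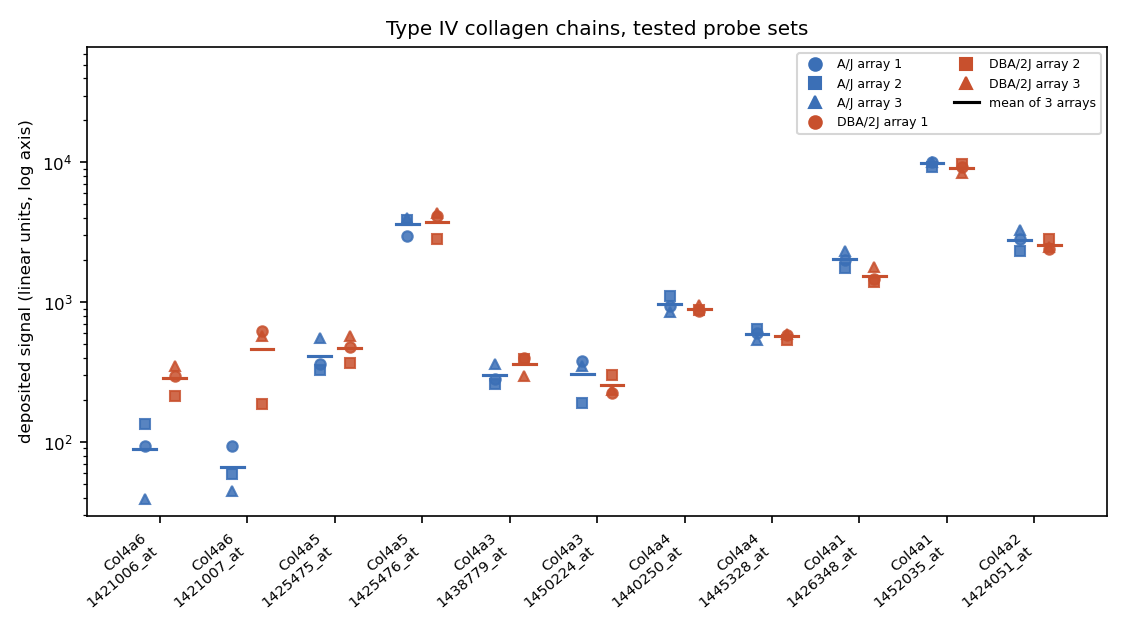
Each point is the deposited signal of one array (log axis) for a tested type IV collagen probe set, blue for A/J and red for DBA/2J, with bars at the mean of 3 arrays. In both Col4a6 probe sets the DBA/2J arrays lie above the A/J arrays, and in every other probe set the strains overlap.

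Col8a1, a short-chain collagen made by vascular smooth muscle and endothelium, was higher in DBA/2J by both probe sets that could be tested. The probe set 1418440_at read 780.4, 811.3 and 811.6 in A/J and 1315.4, 1376.9 and 1381.2 in DBA/2J. The 3 values of each strain lay close together and far from those of the other strain. Its mean rose from 801 ± 17.9 to 1358 ± 36.8, a log2 difference of 0.75 (SE 0.17, 1.68-fold, limma adjusted p = 0.0487). The brighter 1455627_at read 2083.6, 3194.6 and 2536.1 in A/J and 5053.4, 4331.7 and 4342.5 in DBA/2J, again without overlap. Its log2 difference of 0.83 (SE 0.20, 1.77-fold) missed the threshold over probe sets (limma adjusted p = 0.0592) and passed it over genes, where it stood for Col8a1 (limma adjusted p = 0.0442). The call of 1418440_at was lost without each of the 6 arrays in turn, while its log2 difference stayed between 0.73 and 0.77. The limma adjusted p was 0.146, 0.1005 and 0.165 without A/J arrays 1, 2 and 3, and 0.179, 0.063 and 0.141 without DBA/2J arrays 1, 2 and 3. The gene-level call of Col8a1 was kept without A/J array 2 and without DBA/2J array 2, and lost without each of the others. Another Col8a1 probe set was dim, between 7.6 and 78.4, and not tested. Col8a2, the partner chain in Descemet's membrane of the eye, was also dim, reading 79.7, 89.4 and 49.2 in A/J and 143.7, 57.9 and 140.5 in DBA/2J, with overlap. Col10a1, the collagen of hypertrophic cartilage, read 22.0 or less on every array.

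Markers of other cell types were read on the same arrays as Col4a6 and Col8a1. In the type I cell list 7 of 14 tested genes were called higher and 0 lower, and the summed signal was 41859 to 45932 in A/J against 75073 to 83586 in DBA/2J. In the skeletal muscle list all 15 tested genes were called lower. In the endothelium list 0 of 12 genes were called by limma, with 3 higher and 0 lower at an unadjusted p under 0.05 and summed signals of 12016 to 12890 in A/J against 14015 to 18107 in DBA/2J. In the smooth muscle and pericyte list 0 of 11 were called by limma, with 2 higher and 2 lower at an unadjusted p under 0.05, and the summed signals overlapped (45672 to 54849 and 39675 to 52584). No marker was at 0 on any array. The muscle signal was highest on A/J arrays 1 and 3. Without both of them, which left 1 A/J array, the log2 difference was 2.50 for Col4a6 1421007_at and 0.73 for Col8a1 1418440_at. That remaining array, A/J array 2, still had a summed muscle signal of 52436, against 1833 to 3156 in DBA/2J. The muscle difference thus stayed in this fit, which cannot separate it from the collagen differences. The part of these cells in the collagen differences was not tested.

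The fibrillar collagens, the brightest of the family, were not called in either direction. Of their 21 probe sets 18 were tested and 0 passed by limma. At an unadjusted limma p under 0.05, a level met by 15.3% of all tested probe sets, 0 were higher and 3 lower. The median log2 difference was -0.13, with 5 positive and 13 negative. Col3a1, the fibrillar chain of elastic and vascular tissue, read 22714.6, 22710.8 and 20775.1 in A/J and 22529.1, 20254.3 and 17444.0 in DBA/2J by its bright probe set, a difference of -0.14 (95% interval -0.46 to 0.17). Col1a2, a chain of type I collagen, read 20046.8, 20858.8 and 19614.3 in A/J and 22246.3, 22853.1 and 15963.8 in DBA/2J, and its 3 probe sets gave -0.10 to -0.01. For these bright chains the strains overlapped, with DBA/2J array 3 the lowest of the 6 in both.

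Col1a1, the partner of Col1a2 in type I collagen, gave opposite signs by its 2 probe sets. The brighter, 1455494_at, read 6925.5, 9847.0 and 8866.9 in A/J and 7359.5, 6046.2 and 5515.7 in DBA/2J (log2 difference -0.43, limma adjusted p = 0.307). The dimmer, 1423669_at, read 1448.8, 1194.9 and 1491.6 in A/J and 1372.8, 1879.4 and 2048.4 in DBA/2J (0.34, limma adjusted p = 0.515). Neither difference passed the test. The type V chains, which help start type I fibrils and limit their width, were not called either. Col5a1 by 1434479_at read 3439.5, 4443.4 and 4495.0 in A/J and 3209.1, 3566.0 and 3606.3 in DBA/2J (-0.24), and its other probe sets gave -0.40 and 0.43. Col5a2 by 1422437_at read 10076.6, 10423.5 and 10041.2 in A/J and 9695.4, 9417.4 and 7897.8 in DBA/2J, narrowly without overlap (-0.18, 95% interval -0.51 to 0.14), and its other probe set overlapped (-0.21). Col27a1, a fibrillar chain of cartilage, gave 0.05 and -0.12 by its 2 probe sets.

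The 3 fibrillar probe sets with an unadjusted limma p under 0.05, all lower in DBA/2J and none called, were the brighter one of Col1a1 and 1 each of the minor chains Col5a3 and Col11a1. Col5a3 read 828.5, 1357.8 and 864.9 in A/J and 517.4, 598.0 and 726.6 in DBA/2J, without overlap (log2 difference -0.69, SE 0.24, limma adjusted p = 0.204). Its second probe set was too dim to test but lay the same way, at 68.0 to 87.4 and 9.7 to 35.3. Col11a1, a fibrillar chain best known from cartilage, read 438.5, 538.6 and 290.4 in A/J and 238.7, 285.0 and 149.0 in DBA/2J by 1418599_at, narrowly without overlap (-0.87, SE 0.30, limma adjusted p = 0.194). Its other probe set read 352.9, 377.8 and 268.6 against 206.1, 261.2 and 241.0 (-0.46, limma adjusted p = 0.364). Both Col11a1 probe sets thus placed every DBA/2J array below every A/J array, by the narrowest gap between A/J array 3 and DBA/2J array 2. Its partner Col11a2 was dim and overlapped, at 130.3, 61.3 and 146.6 in A/J and 17.9, 122.0 and 30.5 in DBA/2J. The dim fibrillar chain Col24a1 lay between 21.6 and 64.6.

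Col2a1, the main collagen of cartilage, read 229.8, 171.8 and 222.3 in A/J and 175.2, 224.5 and 245.0 in DBA/2J, a difference of 0.04. The cartilage markers other than collagens had summed signals of 1503 to 1722 in A/J against 1908 to 2128 in DBA/2J, with 1 of 5 tested genes called higher, the link protein Hapln1 (log2 difference 1.80). Among the defining genes of cartilage, Acan read 112.9, 130.6 and 127.0 in A/J and 197.0, 180.5 and 148.8 in DBA/2J. Its log2 difference of 0.45 was not called (limma adjusted p = 0.376), and Cnmd was between 3.5 and 32.8 on all arrays. Of the 5 tested cartilage markers 3 had positive and 2 negative differences. In the tendon list of 4 tested genes 1 was called higher, the proteoglycan Fmod (1.44), and 1 lower, Thbs4 (-1.94), with summed signals of 2585 to 2975 in A/J against 2015 to 2740 in DBA/2J. In the fibroblast list 1 of 12 genes was called higher, the fibulin Fbln2 (1.09), and 0 lower. At an unadjusted limma p under 0.05 there were 2 higher and 3 lower, the lower ones being Fap, Fn1 and Postn, and 6 differences were positive and 6 negative. The summed signals of that list overlapped (100377 to 105656 and 81120 to 107550). The part of these cells in the collagen values was not tested.

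Counted over all classes, 10 of the 52 tested collagen probe sets had arrays that did not overlap between the strains, 5 above and 5 below in DBA/2J. That is 19.2% of them, beside 21.1% of all tested probe sets (11.5% above and 9.54% below), a share near the background. The 5 above were those of Col4a6 and Col8a1 and 1 of Col23a1, and the 5 below were those of Col11a1 with 1 each of Col5a2, Col5a3 and Col9a1. The series' own rule asks for at least 6 of 9 array pairs past 1.5-fold with a p under 0.05, here the unadjusted limma p. It passed 8 collagen probe sets (15.4%), 6 higher and 2 lower. Of all tested probe sets it passed 10.1%, 1413 higher and 1312 lower. The higher collagen probe sets were both of Col4a6, both tested ones of Col8a1 and 1 each of Col12a1 and Col23a1. The lower ones were 1 each of Col9a1 and Col11a1. Both Col4a6 probe sets entered the test through their DBA/2J signals alone, so their place on the higher side of both counts came with the difference itself.

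**Figure D3:**
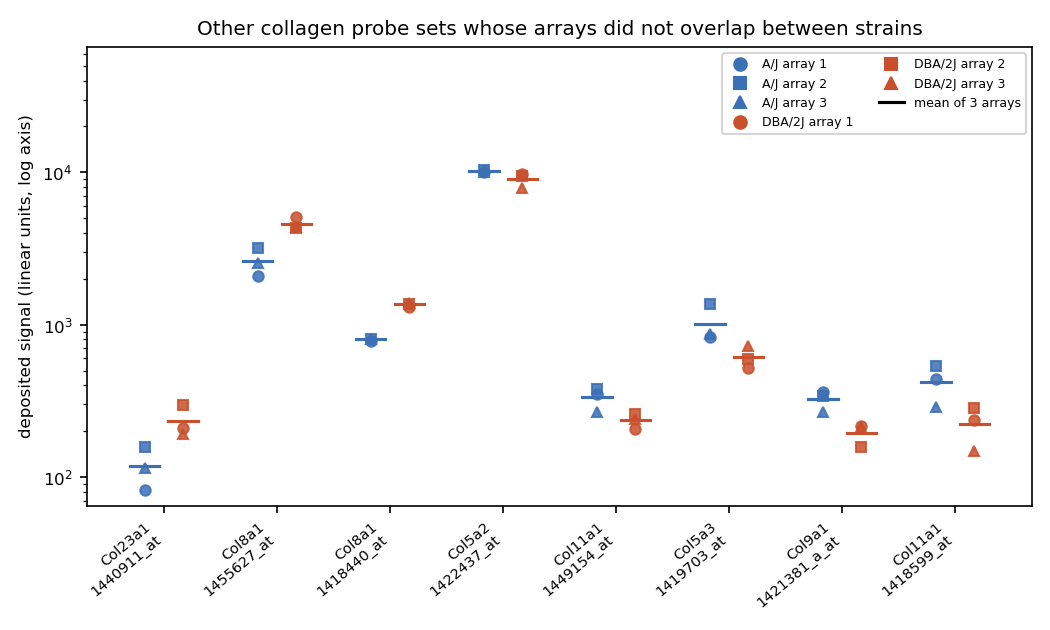
Each point is the deposited signal of one array (log axis) for the 8 tested collagen probe sets, other than those of Col4a6, whose arrays did not overlap between strains; blue is A/J, red is DBA/2J and bars are means of 3 arrays. The gap is wide for Col8a1 1418440_at (780.4 to 811.6 against 1315.4 to 1381.2) and narrow for Col5a2 and Col11a1.

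The fibril-associated collagens, which sit on the surface of fibrils, had 24 probe sets, of which 11 were tested and 0 passed by limma. At an unadjusted limma p under 0.05, a level met by 15.3% of all tested probe sets, 1 was higher and 1 lower. The brightest, Col14a1 by 1427168_a_at, read 7585.7, 7944.4 and 8630.2 in A/J and 8226.0, 6986.8 and 8072.7 in DBA/2J, a difference of -0.05 (95% interval -0.39 to 0.28). Col9a1, a chain of the cartilage and eye collagen IX, read 361.9, 342.9 and 267.1 in A/J and 214.8, 156.7 and 212.7 in DBA/2J, without overlap (-0.69, SE 0.23, limma adjusted p = 0.169). A second Col9a1 probe set was too dim to test and overlapped, and the partner chains were dimmer still, Col9a2 at 7.6, 7.3 and 3.8 in A/J and 4.4, 6.9 and 5.5 in DBA/2J, and Col9a3 between 18.0 and 53.3. Col9a1 was therefore the one chain of its trimer with a tested signal. The other tested probe sets of dimmer fibril-associated chains overlapped, with differences of -0.04 for Col16a1, 0.09 for Col19a1, 0.20 for Col22a1 and -0.17 to -0.09 for the 3 tested probe sets of Col20a1. An untested probe set of Col20a1 lay higher in DBA/2J without overlap, at 33.1, 21.4 and 31.3 against 60.8, 114.2 and 55.0.

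Col12a1, a fibril-associated chain of dense connective tissue, varied widely within DBA/2J. Its probe set 1434411_at read 403.9, 538.0 and 313.9 in A/J and 1109.0, 378.9 and 2017.7 in DBA/2J. DBA/2J arrays 1 and 3 stood above all A/J arrays, while DBA/2J array 2 lay among them. The log2 difference was 1.19 (SE 0.51, limma adjusted p = 0.307). With each array left out in turn it ran from 0.65 to 1.83. Among those fits it passed only without DBA/2J array 2, where it was largest (limma adjusted p = 0.0116). The second tested probe set gave 0.45 with overlap and had its highest value, 271.2, on DBA/2J array 2. The 2 probe sets thus placed that array at opposite ends of its strain.

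Col3a1 gave a similar split by its second probe set, 1427884_at. It read 2462.5, 9781.9 and 3056.1 in A/J and 9680.1, 3764.1 and 9655.0 in DBA/2J, so that A/J array 2 and DBA/2J arrays 1 and 3 were high and the other 3 low. The bright Col3a1 probe set, quoted above, showed no such split. The log2 difference of 0.75 (SE 0.53, limma adjusted p = 0.585) ran from 0.37 to 1.36 with arrays left out in turn. The Gapdh 3' to 5' ratio was highest on A/J array 2 and next on DBA/2J array 2, and its part in the split was not tested. Of the 19 genes with several tested probe sets, 13 had the same sign in all of them and 6 did not (Col1a1, Col3a1, Col4a3, Col5a1, Col14a1 and Col27a1).

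**Figure D4:**
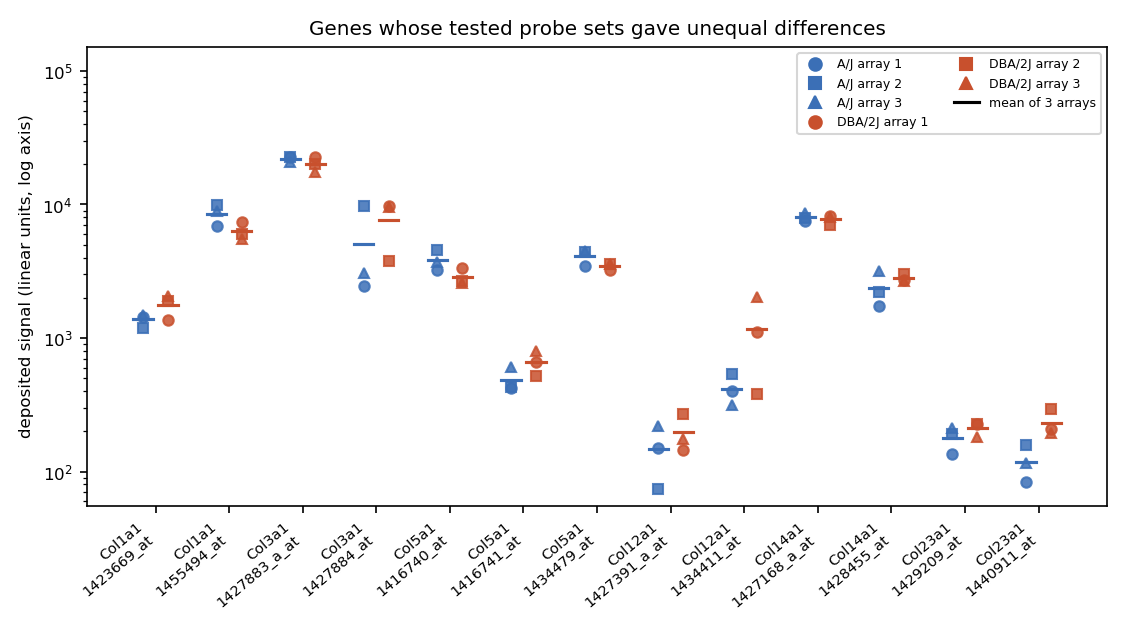
Each point is the deposited signal of one array (log axis) for the tested probe sets of 6 genes whose probe sets gave unequal differences; blue is A/J, red is DBA/2J and bars are means of 3 arrays. Col3a1 1427884_at and Col12a1 1434411_at are widely spread within a strain, from 2462.5 to 9781.9 in A/J for the former and from 378.9 to 2017.7 in DBA/2J for the latter.

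The type VI chains, which form beaded filaments around cells and in the endomysium of muscle, were not called. Of 7 probe sets 4 were tested and 0 passed by limma, with 0 at an unadjusted p under 0.05. Col6a1 read 5649.3, 6818.1 and 8106.7 in A/J and 7624.2, 6821.1 and 7560.1 in DBA/2J (log2 difference 0.11, 95% interval -0.28 to 0.50). Col6a2 read 8936.5, 11808.0 and 11232.2 in A/J and 11310.6, 9338.0 and 8601.6 in DBA/2J (-0.13, 95% interval -0.51 to 0.26). Col6a3 read 3687.0, 6005.9 and 4576.1 in A/J and 5914.0, 4139.2 and 5593.7 in DBA/2J (0.14, 95% interval -0.36 to 0.65). The differences of these chains of the common type VI trimer ran from -0.13 to 0.14, with intervals that reached -0.51 and 0.65. The tested muscle markers had a median difference of -5.78, and the part of muscle in the type VI values was not tested. Col6a4 and Col6a5 were too dim to test, and 1 probe set of Col6a4 lay lower in DBA/2J without overlap (109.6 to 151.7 and 60.7 to 85.7).

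The multiplexins Col15a1 and Col18a1, basement membrane collagens whose C-terminal part is released as endostatin or a relative of it, were not called, with 0 of 3 probe sets at an unadjusted limma p under 0.05. Col18a1 read 3397.8, 3051.4 and 3030.5 in A/J and 4200.9, 2931.2 and 3975.5 in DBA/2J by its bright probe set (0.21), and 0.28 was the difference by the other. Col15a1, abundant around capillaries and muscle, read 1317.1, 1872.6 and 1931.4 in A/J and 1441.7, 1491.7 and 1304.3 in DBA/2J (-0.25, limma adjusted p = 0.648). Col7a1, whose fibrils anchor the skin's epithelium, was dim, at 151.4, 122.8 and 156.6 in A/J and 161.5, 110.9 and 109.9 in DBA/2J (-0.17).

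The transmembrane collagens were dim, with signals of 295.0 or less. Col23a1 by 1440911_at read 82.9, 158.3 and 115.4 in A/J and 208.4, 295.0 and 193.2 in DBA/2J, without overlap, but did not pass (0.90, SE 0.29, limma adjusted p = 0.157), and its brighter probe set overlapped (0.25). Col13a1, a collagen of the neuromuscular junction, was not tested and read 58.7, 65.9 and 78.7 in A/J and 149.2, 122.7 and 167.4 in DBA/2J. One of the dim Col25a1 probe sets read 6.7, 19.7 and 30.6 against 71.7, 75.2 and 101.9, and the other overlapped. Col17a1, of epithelial hemidesmosomes, read 13.8 or less on every array. The brighter of 2 dim Col26a1 probe sets lay lower in DBA/2J, at 141.8, 165.2 and 157.0 against 78.5, 61.7 and 21.0, and the other overlapped, at 59.2, 42.4 and 18.9 against 3.6, 9.3 and 29.4. When dim probe sets were kept in the fit, 0 of the 30 untested collagen probe sets passed limma, the nearest being Col25a1 at an adjusted p of 0.0687.

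The genes that make, trim, cross-link, bind or accompany collagens were also close to level. Of 62 such genes 49 were tested, and 1 was called higher and 0 lower by limma, beside 2.57% called higher and 1.91% lower of all genes. At an unadjusted limma p under 0.05 there were 3 higher and 3 lower. The share of all genes at that level was not counted, and that of all tested probe sets was 15.3%. Their median log2 difference was -0.06, against 0.03 for all genes.

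The one called gene was Lamc3, the gamma-3 chain of laminin, a basement membrane partner of type IV collagen. It read 112.0, 187.5 and 155.6 in A/J and 482.8, 380.1 and 546.1 in DBA/2J, well apart. Its mean rose from 152 ± 37.9 to 470 ± 83.8, a log2 difference of 1.54 (SE 0.25, limma adjusted p = 0.00884), and its second probe set was called too (1.08). Without DBA/2J array 1 none of these genes was called by limma, Lamc3 included. The other 12 tested basement membrane partners did not pass. Nid1, which links laminin to type IV collagen, came nearest, with 7307.7, 8081.0 and 8272.4 in A/J and 5538.6, 5832.6 and 5722.9 in DBA/2J (-0.47, limma adjusted p = 0.0999). The perlecan core protein Hspg2 was at -0.20.

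Of 19 tested genes that modify and fold collagen inside the cell, 0 were called by limma and 0 had an unadjusted p under 0.05, with differences between -0.64 and 0.46. Serpinh1, the collagen chaperone HSP47, read 4071.8, 8423.2 and 4750.9 in A/J and 5077.8, 1126.5 and 7477.7 in DBA/2J (-0.64, SE 0.60). P4ha1, a catalytic subunit of prolyl hydroxylase, read 827.2, 929.9 and 541.3 in A/J and 906.9, 130.4 and 1119.7 in DBA/2J (-0.51, SE 0.66). In both genes DBA/2J array 2 was the lowest of the 6 arrays, far below the other DBA/2J arrays. Of 9 genes of propeptide removal and cross-linking 0 were called, with 1 higher and 1 lower at an unadjusted limma p under 0.05, and the lysyl oxidase Lox was at 0.27 (SE 0.23). Of 8 collagen receptors 0 were called, with 1 higher and 0 lower at an unadjusted limma p under 0.05, and their median difference was 0.27.

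**Figure D5:**
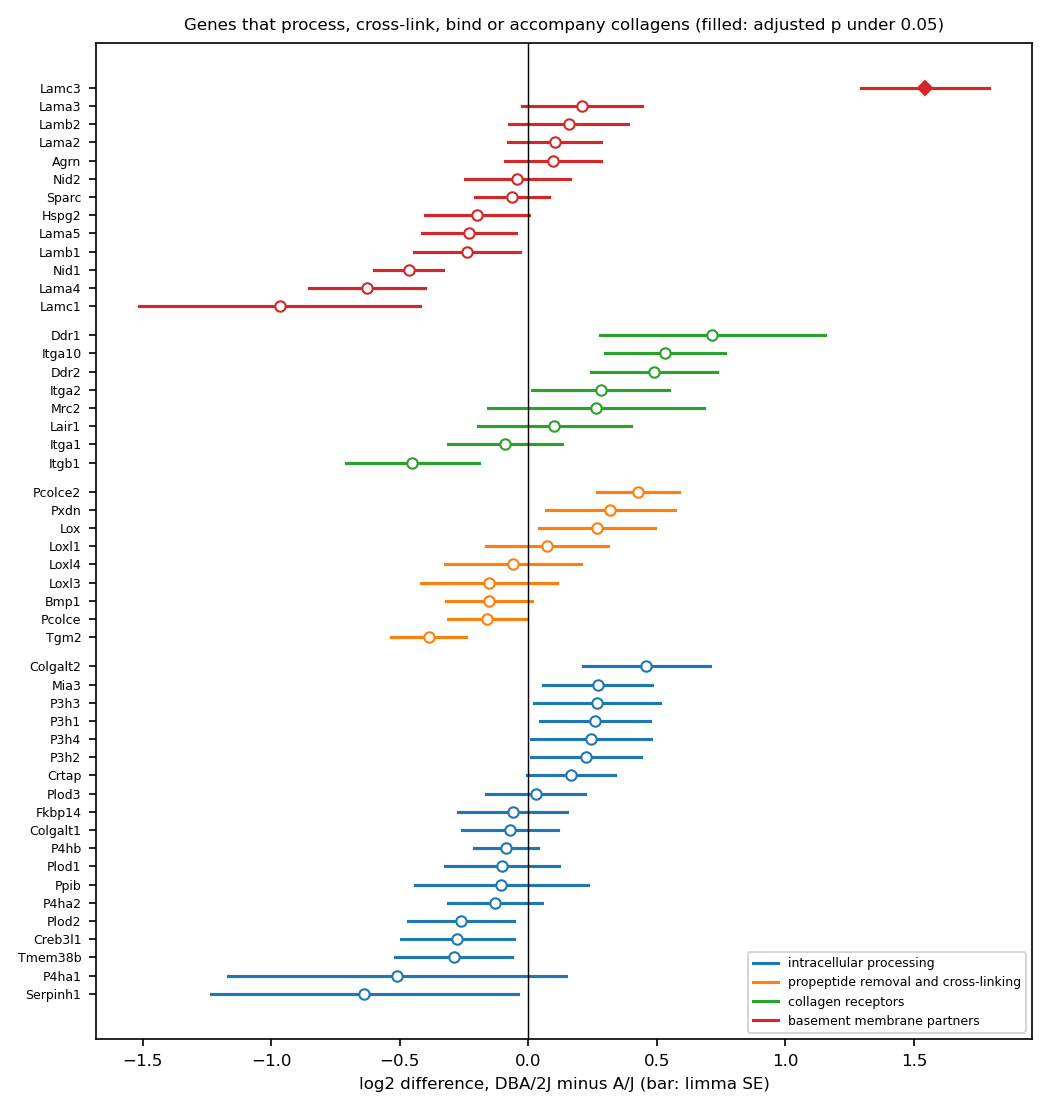
The x axis gives the log2 difference, DBA/2J minus A/J, of 49 genes that process, cross-link, bind or accompany collagens, with bars of 1 SE from limma; filled symbols passed an adjusted p of 0.05 over all genes. Lamc3 at 1.54 stands apart, and Serpinh1 and P4ha1 carry the widest bars of the processing genes.

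Across arrays the collagens showed no shift of the whole family. The median deviation of the 52 tested probe sets from their own mean over the 6 arrays was -0.10, 0.02 and 0.09 in A/J (arrays 1, 2 and 3) against 0.04, -0.06 and 0.02 in DBA/2J. A/J array 2 held the highest value of 16 probe sets, and A/J array 1 and DBA/2J array 3 the lowest value of 14 each. In the list of Schwann and type II cells, which lie on basement membrane, 2 of 9 tested genes were called lower and 0 higher, and their summed signal was 39478 to 42201 in A/J against 28455 to 29236 in DBA/2J. Adipocytes, also wrapped in type IV and VI collagen, had 2 of 6 markers called lower, with summed signals of 48183 to 69389 and 24927 to 40880. In the bone list 0 of 2 were called by limma, with 1 higher at an unadjusted p under 0.05, and summed signals were 735 to 961 and 935 to 1088. The part of these cells in the collagen values was not tested.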

How the data were processed

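Total RNA from pooled carotid bodies was amplified through repeated cDNA synthesis and in vitro transcription and hybridised to Affymetrix Mouse 430 2.0 arrays, per the labels' protocols. The deposited values are linear intensity signals, and as deposited each array has a trimmed mean of 500.0, a common scale; the sources used here name no software. Oligo(dT)-primed amplification can lower probe sets far from the 3' end.

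The 64 control probe sets were left out, signals were taken as log2(signal + 16), and the upper 60% by mean (27022) were fitted with limma 3.58.1 (R 4.3.3; lmFit, eBayes with intensity trend, two-sided). Symbols came from GEO's platform annotation, updated through RefSeq (GRCm38.p6), which also supplied the promoter windows; all 42 collagen symbols matched. For genes the brightest probe set stood in. The fit was tested on simulated data. Members, gene lists and tests were chosen with earlier results of these data known. Values per array were given for called probe sets, the brightest of each class and partner chains; the other members described in detail were chosen after their values were seen. Alternatives were other normalization, pseudocounts, filters, variance models, array weights, blocks and each array left out. The series' rule names 6 of 9 comparisons and 1.5-fold; its test was replaced by the limma p. Figures used matplotlib 3.10.9.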

Additional observations from a re-analysis of the deposited data

How the results depend on the processing

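The log2 differences of the 40 named collagen probe sets kept their side of the threshold in 678 of 713 results under other settings, 17 newly passed and 18 no longer passed. No called value changed sign. Only 2 of the 40 were called in the main fit, so the rest could only stay uncalled or newly pass, and all 18 losses were those of the called 2. Counting the main fit but not the series' rule, Col4a6 1421007_at passed in 11 of 17 settings and Col8a1 1418440_at in 6 of 18. The 2 collagen probe sets and 2 genes called higher became 1 and 1 with median scaling, 1 and 1 with the upper 40% of probe sets kept, and 1 and 1 without the intensity trend, and the genes became 1 without a filter. With array weights 6 collagen probe sets were called higher and 1 lower, 3 genes higher and 1 lower, and 2 pathway genes higher and 2 lower, while calls over all probe sets went from 883 to 3007. By the series' rule 6 collagen probe sets were higher and 2 lower, and 3 genes higher and 2 lower. With arrays left out in turn the collagen probe sets called higher ran from 0 to 3, the genes from 0 to 3 and the pathway genes from 0 to 1. Without A/J arrays 1 and 3, an alternative chosen after seeing the data, all 3 of these counts were 0, with 78 probe sets called in all. A number in the title is shared by 2 pairs of arrays across strains, and the labels do not say what it marks. Over all tested probe sets the deviations of these pairs correlated at -0.26 and 0.04, and the Gapdh 3' to 5' ratios were 4.87 and 3.28 in one pair and 1.81 and 1.73 in the other. A fixed block on that title number left 0 collagen probe sets, 0 genes and 0 pathway genes called (0 of all probe sets). In that fit the difference between strains rested on the 2 pairs alone, because the other arrays share no number. A random block on the title number left 1 collagen probe set. Why these counts moved was not tested. With no detection calls, signal over background is unknown for dim probe sets, and the 6 arrays limit the precision.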
